A study of Mus musculus with 12 samples.

Results

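The 4 genes described here encode proteins of the IκB family: *Nfkbia* (IκBα), *Nfkbie* (IκBε), *Nfkbiz* (IκBζ) and *Bcl3*. They were picked by symbol among the 124 genes that the authors tabulated as dependent on NF-κB, and all 4 have a value in every group. NF-κB dimers rest in the cytosol while bound to a classical IκB such as IκBα or IκBε. Receptors such as the Toll-like receptors (TLRs) activate the IκB kinase complex, which marks these IκBs for degradation, and the freed dimers then enter the nucleus and induce, among many genes, those for the IκBs themselves. IκBζ and Bcl-3 are atypical: they are nuclear, contact p50 or p52 dimers on DNA and can raise or lower transcription, and in macrophages IκBζ is best known for its part in the late induction of cytokine genes such as *Il6*.

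RNA was sequenced from peritoneal macrophages of C57BL/6J mice, cells that had been recruited to the abdominal cavity with the irritant thioglycollate. The genotypes were N4bp1+/+ (wild type) and N4bp1-/-, a line with a small CRISPR-Cas9 deletion in *N4bp1*, whose product binds the NEMO subunit of the IκB kinase complex. Cells of each genotype were left unstimulated or were treated for 2 h with the TLR7 ligand R848 at 20 ng/ml or with the TLR4 ligand LPS at 10 ng/ml. Each of the 6 groups holds the libraries of 2 mice, 12 in all, whose ages the sample labels do not give. Each value is the authors' mean FPKM over the 2 mice, that is, fragments scaled by transcript length and library size, which permits levels to be compared between genes. How library size was estimated is not stated. Values of single mice and read counts were not analysed here and the depth of the libraries is unknown, so no value carries an error, no test between mice was made, and no difference can be set against the spread between replicates. *N4bp1* itself and all 9 macrophage markers checked (such as *Adgre1* and *Cd68*) are outside the 124 genes, so neither the knockout nor the cell type was checked from these values.

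The genes lie apart in the genome (mm10, the same assembly as GRCm38). *Nfkbia* is on chromosome 12 (55489409 to 55492647, minus strand), *Nfkbie* on chromosome 17 (45555715 to 45563169, plus strand), *Nfkbiz* on chromosome 16 (55811374 to 55838899, minus strand) and *Bcl3* on chromosome 7 (19808461 to 19822770, minus strand). The values cover each gene's transcripts as a whole. The GENCODE M21 annotation places 2 antisense genes, *Gm16175* and *Gm16174*, within *Bcl3*. The libraries were stranded, but whether strand was used in counting is not stated, so reads of *Bcl3* and of these genes may not have been told apart. No other annotated gene overlaps the 4.

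Because the 4 genes share their induction by NF-κB, the DNA before their start sites is shown for the 3 with an entry in the RefSeq promoter table (GRCm38.p6). These are the 250 bases that end just before the RefSeq start, 5′ to 3′ on the gene's strand. Capitals mark matches to GGGNNNNNCC on either strand, the outline of a κB site. The stretches are 55492648 to 55492897 of chromosome 12 for *Nfkbia*, 45555450 to 45555699 of chromosome 17 for *Nfkbie* and 19822756 to 19823005 of chromosome 7 for *Bcl3*. The RefSeq start can differ from the gene positions given above. The *Bcl3* stretch overlaps the gene's stated span, which ends at 19822770, and the *Nfkbie* stretch stops short of its gene's, which begins at 45555715.
Nfkbia: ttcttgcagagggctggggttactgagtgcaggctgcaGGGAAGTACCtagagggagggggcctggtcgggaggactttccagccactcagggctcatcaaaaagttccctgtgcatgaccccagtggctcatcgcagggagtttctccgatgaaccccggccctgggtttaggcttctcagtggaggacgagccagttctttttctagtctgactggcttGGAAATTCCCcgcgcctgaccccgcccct
Nfkbie: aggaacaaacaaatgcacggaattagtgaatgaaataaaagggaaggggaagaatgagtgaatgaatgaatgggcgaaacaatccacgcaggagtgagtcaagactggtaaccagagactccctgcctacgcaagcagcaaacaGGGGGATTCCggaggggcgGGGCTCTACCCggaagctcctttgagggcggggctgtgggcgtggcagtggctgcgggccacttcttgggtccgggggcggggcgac
Bcl3: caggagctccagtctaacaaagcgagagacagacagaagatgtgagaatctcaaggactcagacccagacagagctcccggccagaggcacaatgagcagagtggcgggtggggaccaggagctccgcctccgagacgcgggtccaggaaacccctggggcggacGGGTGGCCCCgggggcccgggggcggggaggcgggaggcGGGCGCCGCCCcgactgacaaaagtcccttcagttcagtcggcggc
The stricter κB consensus was met once in *Nfkbia*, by GGAAATTCCC on the other strand, 29 to 20 bases before the start, and once in *Nfkbie*, by GGGGGATTCC, 106 to 97 bases before it. In *Bcl3* the window had 0 matches to the stricter form. The loose outline also matched *Nfkbia* 212 to 203 bases before the start, and the remaining matches in *Nfkbie* and *Bcl3* overlap each other across the strands. Of 32851 promoters in the table, 45.8% hold the loose outline and 7.25% the stricter form, against 65.7% and 24.5% of the 102 listed genes that matched the table by symbol. The loose outline is thus common, and a match is a description of the letters and not a site of binding.

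In unstimulated N4bp1+/+ macrophages *Nfkbia* was the most abundant of the 4, at a mean of 27.4 FPKM, followed by *Bcl3* at 7.82, *Nfkbie* at 3.65 and *Nfkbiz* at 2.06 FPKM. The median of all 124 listed genes in that group was 3.90 FPKM. After either stimulus *Nfkbia* stayed first and the other 3 stood in the reverse order, with *Nfkbiz* above *Nfkbie* and *Nfkbie* above *Bcl3*. Each of these orders was the same in both genotypes. With no spread between mice, it cannot be said which neighbours in it differ beyond replicate error.

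*Nfkbiz*, the inducible nuclear IκB, had the widest range of the 4. Its mean in N4bp1+/+ cells went from 2.06 FPKM without stimulus to 198.9 FPKM after R848, which is 96.7-fold, and to 230.9 FPKM after LPS, which is 112-fold. The classical inhibitors had folds between those of the 2 atypical ones. *Nfkbia* went from 27.4 to 654 FPKM after R848 (23.9-fold) and to 822 FPKM after LPS (30.0-fold), and *Nfkbie* from 3.65 to 119 FPKM after R848 (32.7-fold) and to 170 FPKM after LPS (46.6-fold). *Bcl3* had the smallest fold, from 7.82 to 71.4 FPKM after R848 (9.13-fold) and to 84.6 FPKM after LPS (10.8-fold). The R848 and LPS folds share the same unstimulated group.

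These folds stand on a list of inducible genes. In N4bp1+/+ cells 100% of the 124 genes were at least 1.5-fold higher after R848 than without stimulus and 96% after LPS, so that all 4 genes exceed this mark says nothing particular about them. The fold of the median listed gene was 8.94 for R848 and 13.2 for LPS. Relative to that gene 48 genes were higher and 45 lower by 1.5-fold after R848, and 53 and 52 after LPS. A median has as many of the same genes above it as below, so near-equal counts follow from this scaling. By fold after R848, *Nfkbiz* ranked 15th, *Nfkbie* 23rd, *Nfkbia* 33rd and *Bcl3* 62nd of 124, and after LPS they ranked 25th, 35th, 43rd and 66th. *Bcl3* thus lay near the median gene after R848 and below it after LPS. How the 3 treatment tables were scaled against each other is not stated, and the sample titles give unstimulated libraries a different leading letter, so a batch and the stimulus cannot be told apart.

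**Figure D1:**
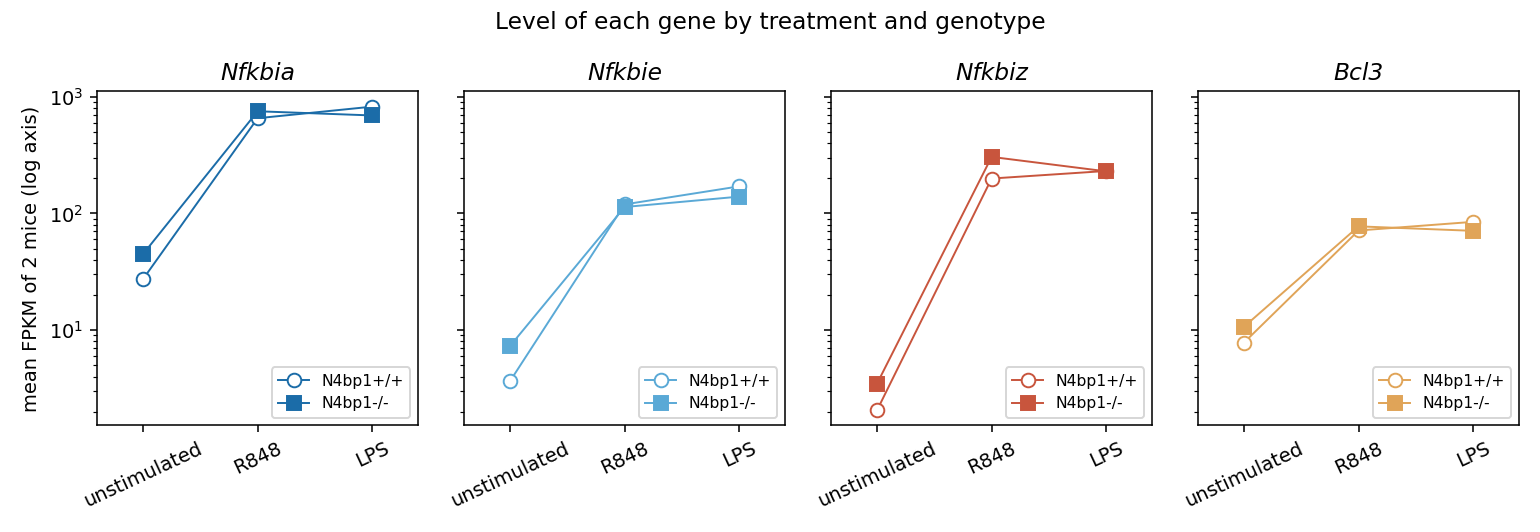
Mean FPKM of each gene over 2 mice (y axis, logarithmic) without stimulus, after R848 and after LPS (x axis), with open circles for N4bp1+/+ and filled squares for N4bp1-/-; there are no error bars because values of single mice were not used. Without stimulus the square lies above the circle for all 4 genes, although for *Bcl3* this turns relative to the median listed gene. After LPS the square lies lower for *Nfkbia*, *Nfkbie* and *Bcl3* and covers the circle for *Nfkbiz*, at 230.9 and 229.3 FPKM. Among the listed genes, 76.4% were higher in the knockout without stimulus and 58.1% lower after LPS.

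Without stimulus, loss of N4bp1 went with higher means of all 4 genes, as of 94 of 123 listed genes (76.4%). The difference was 1.5-fold or more for *Nfkbie*, *Nfkbiz* and *Nfkbia*, but no gene of the 4 reached that mark relative to the median listed gene. *Nfkbie*, whose product is known to restrain p65 and c-Rel dimers, stood at 3.65 FPKM in wild-type and 7.31 FPKM in knockout cells, which is 2.00-fold (log2 ratio 1.00). *Nfkbiz* stood at 2.06 and 3.48 FPKM, 1.69-fold (log2 ratio 0.76), and *Nfkbia* at 27.4 and 44.8 FPKM, 1.64-fold (log2 ratio 0.71). *Bcl3* stood at 7.82 and 10.7 FPKM, 1.37-fold (log2 ratio 0.45), and its direction turned to a log2 ratio of −0.08 relative to the median listed gene. Under that scaling the log2 ratios were 0.47 for *Nfkbie*, 0.23 for *Nfkbiz* and 0.19 for *Nfkbia*, all still above 0 and all short of the 1.5-fold mark. In bulk RNA, more cells that express a gene and more RNA per cell cannot be told apart.

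The background is high here: of 123 genes with a ratio, 47.2% were at least 1.5-fold higher in unstimulated N4bp1-/- cells and 3.25% were lower by that much, which is 58 and 4 genes, whereas relative to the median listed gene 41 were higher and 27 lower. The median log2 ratio of the 4 genes was 0.74 and that of all listed genes 0.53. Ranked from the highest ratio, *Nfkbie* was 44th, *Nfkbiz* 52nd, *Nfkbia* 55th and *Bcl3* 67th of 123, which places all 4 in the middle of the list. With 1 FPKM added to both means the log2 ratio of *Nfkbiz* was 0.55, under the 1.5-fold mark, since its levels were low.

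Markers of other cell types also differed in sum between the unstimulated groups. The 3 of 9 neutrophil markers on the list summed to 3.58 FPKM in wild-type and 6.11 FPKM in knockout cells. Of these, *Mmp9* stood at 1.29 and 4.30 FPKM and *Trem1* at 0.0271 and 0.205 FPKM, while *Lcn2* was lower in the knockout, at 2.26 and 1.61 FPKM. The 3 of 6 stromal markers summed to 0.974 and 4.87 FPKM, and the 4 of 7 dendritic cell markers to 32.9 and 25.8 FPKM. *Cd83* made up most of the dendritic sum, at 32.6 and 23.7 FPKM, while the other 3 were higher in the knockout: *Ccr7* at 0.0452 and 0.942, *Ccl22* at 0.182 and 1.01 and *Ccl17* at 0.0682 and 0.158 FPKM. The single B cell marker on the list, *Fcer2a*, had 0.0395 and 0.0538 FPKM. The neutrophil sum was 36.6 and 75.5 FPKM after R848 and 14.7 and 35.9 FPKM after LPS. *Lcn2* made up most of it after R848, at 23.0 and 55.6 FPKM, where *Mmp9* stood at 13.0 and 13.8 FPKM and *Trem1* at 0.548 and 6.00 FPKM. The dendritic sum was 473 and 322 FPKM and then 536 and 308 FPKM, and the stromal one 42.0 and 54.2 FPKM and then 88.4 and 88.2 FPKM. *Cd83* again made up most of the dendritic sum, at 460 and 309 FPKM after R848 and 487 and 291 FPKM after LPS. *Ccl22* and *Ccl17* were also lower in the knockout after both stimuli. *Ccr7* was higher, at 0.366 and 2.71 FPKM after R848 and 0.215 and 1.73 FPKM after LPS. *Vcam1* made up most of the stromal sum after LPS, at 86.9 and 83.9 FPKM, while *Sox9* stood at 0.234 and 1.49 FPKM and *Cyp7b1* at 1.25 and 2.81 FPKM. Defining markers such as *S100a8*, *Flt3* and *Col1a1* are outside the list, none of the listed ones was at 0, and the part of other cells in the values of the 4 genes was not tested.

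After R848 only *Nfkbiz* of the 4 genes passed 1.5-fold between the genotypes. Its means were 198.9 FPKM (N4bp1+/+) and 305 FPKM (N4bp1-/-), which is 1.53-fold (log2 ratio 0.62), just inside the mark. Relative to the median listed gene this log2 ratio was 0.34 and relative to the 41 most abundant listed genes 0.50, so the call ends under both scalings while the direction holds. *Nfkbia* stood at 654 and 750.0 FPKM (1.15-fold, log2 ratio 0.20) and *Bcl3* at 71.4 and 77.4 FPKM (1.08-fold, log2 ratio 0.12), and both fall below 0 relative to the median listed gene, at log2 ratios of −0.08 and −0.16. *Nfkbie* stood at 119 and 113 FPKM, with a log2 ratio of −0.07.

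Of the 124 genes, 33.9% were at least 1.5-fold higher in N4bp1-/- cells after R848 and 3.23% lower, which is 42 and 4 genes and becomes 34 and 12 relative to the median listed gene. The 1 of 4 is near this background. The median log2 ratio was 0.16 for the 4 genes and 0.28 for all listed genes. *Nfkbiz* ranked 42nd from the highest ratio, *Nfkbia* 69th, *Bcl3* 77th and *Nfkbie* 94th of 124. The highest level of *Nfkbiz* in any group, 305 FPKM, was that in N4bp1-/- cells after R848, whereas the other 3 genes had theirs in N4bp1+/+ cells after LPS.

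After LPS the log2 ratios of the 4 genes lay between −0.29 and −0.01 and none passed 1.5-fold. Of the 124 listed genes, 72 (58.1%) had a ratio below 0. Relative to the 41 most abundant listed genes they lay between −0.04 and 0.24. *Nfkbia* was itself the median gene of those 41 here, so its value was fixed at 0 and the other genes were set against it. The means in N4bp1+/+ and N4bp1-/- cells were 822 and 690.5 FPKM for *Nfkbia* (log2 ratio −0.25), 170 and 139 FPKM for *Nfkbie* (−0.29) and 84.6 and 70.9 FPKM for *Bcl3* (−0.26). *Nfkbiz* stood at 230.9 and 229.3 FPKM, a log2 ratio of −0.01 that turns to 0.08 relative to the median listed gene and to 0.24 relative to the 41 most abundant. Of the 124 genes, 21% were at least 1.5-fold higher in N4bp1-/- cells after LPS and 16.1% lower, which is 26 and 20 genes and becomes 35 and 9 relative to the 41 most abundant. The median log2 ratio was −0.09, against −0.25 for the 4 genes.

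**Figure D2:**
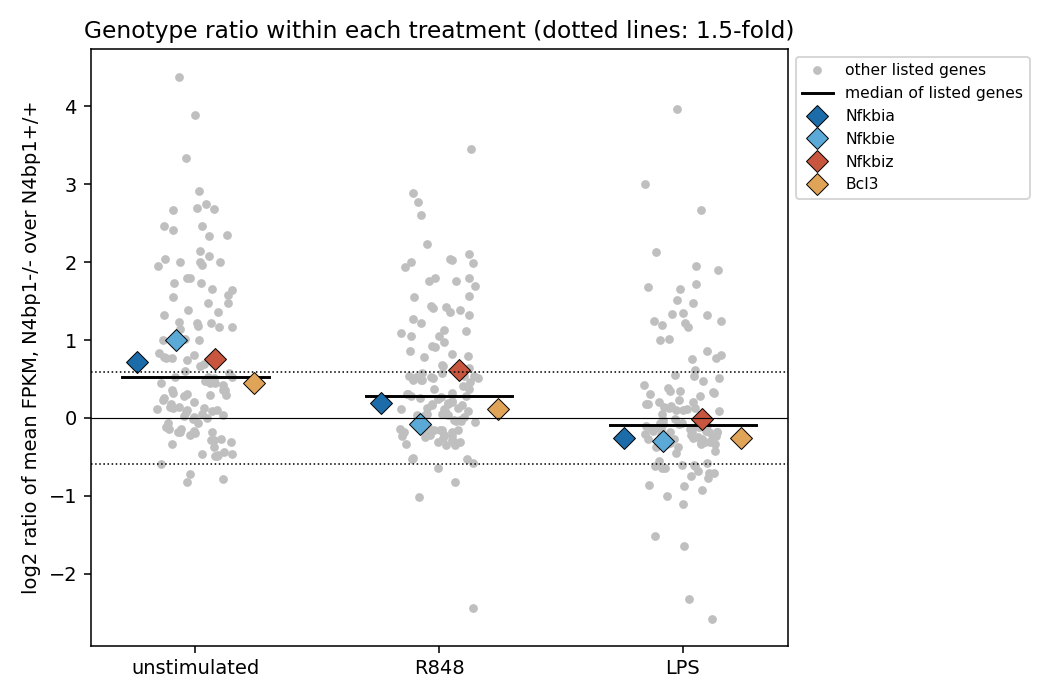
The log2 ratio of mean FPKM in N4bp1-/- over N4bp1+/+ cells (y axis) for each listed gene in unstimulated, R848-treated and LPS-treated macrophages (x axis); grey points are single genes, diamonds the 4 genes, black bars the median of the listed genes and dotted lines 1.5-fold. The diamonds lie within the grey points in each treatment and their median goes from 0.74 without stimulus to 0.16 after R848 and −0.25 after LPS, while *Bcl3* without stimulus, *Nfkbia* and *Bcl3* after R848 and *Nfkbiz* after LPS change side when set against the median bar.

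For each of the 4 genes the genotype ratio was highest without stimulus, lower after R848 and lowest after LPS. This order was shared by 59 of 123 listed genes (48.0%). It is therefore not particular to the IκB genes, and no test of it could be made. *Nfkbie* moved the most: its log2 ratio was 1.07 lower after R848 than without stimulus and 1.29 lower after LPS, where the median listed gene was 0.19 and 0.51 lower. *Nfkbiz* moved the least between the unstimulated and R848 groups, at a difference of −0.14, which turns to 0.10 relative to the median listed gene and to 0.0619 with 1 FPKM added to each mean. Between the stimuli its log2 ratio was 0.63 higher after R848 than after LPS, against 0.45 for *Nfkbia*, 0.37 for *Bcl3* and 0.22 for *Nfkbie*. This difference was above 0 for 95 of 123 listed genes, with a median of 0.26. The value of *Nfkbie* turns to −0.15 relative to the median listed gene and to −0.15 relative to the 41 most abundant, so the order of the 3 treatments does not hold for it under either scaling, nor for *Nfkbiz* under the first.

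The same values give the stimulus folds within N4bp1-/- cells, where each gene started from a higher unstimulated mean. *Nfkbie* had folds of 15.5 for R848 and 19.0 for LPS, against 32.7 and 46.6 in N4bp1+/+ cells. *Nfkbia* was 16.7-fold and 15.4-fold higher, *Nfkbiz* 87.6-fold and 65.9-fold, and *Bcl3* 7.25-fold and 6.63-fold. The knockout over wild-type mean of *Nfkbie* was 0.950-fold after R848 and 0.817-fold after LPS, set against 2.00-fold without stimulus. Of 123 genes, 97.6% were at least 1.5-fold higher after R848 and 95.1% after LPS in these cells, and the median folds were 7.27 and 8.93. Relative to the median listed gene 42 were higher and 44 lower after R848, and 48 and 47 after LPS, counts that this scaling likewise brings near each other. The lower folds in the knockout depend in part on the processing. With 1 FPKM added to each mean, the log2 folds of *Nfkbiz* after R848 in N4bp1+/+ and N4bp1-/- cells were 6.03 and 6.09. Relative to the 41 most abundant listed genes, they were 0.76 and 0.79 for *Nfkbia*, 2.78 and 3.18 for *Nfkbiz* and −0.63 and −0.41 for *Bcl3*. Each comparison has its own median of the 41, however. With the genotype ratios scaled instead, the R848 minus unstimulated differences stayed below 0, at −0.52 for *Nfkbia*, −0.15 for *Nfkbiz* and −0.34 for *Bcl3*. These are the same contrast, so its sign under this scaling depends on which ratio is scaled. *Nfkbie* had the lower fold in the knockout under each scaling and pseudocount, for both stimuli.

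**Figure D3:**
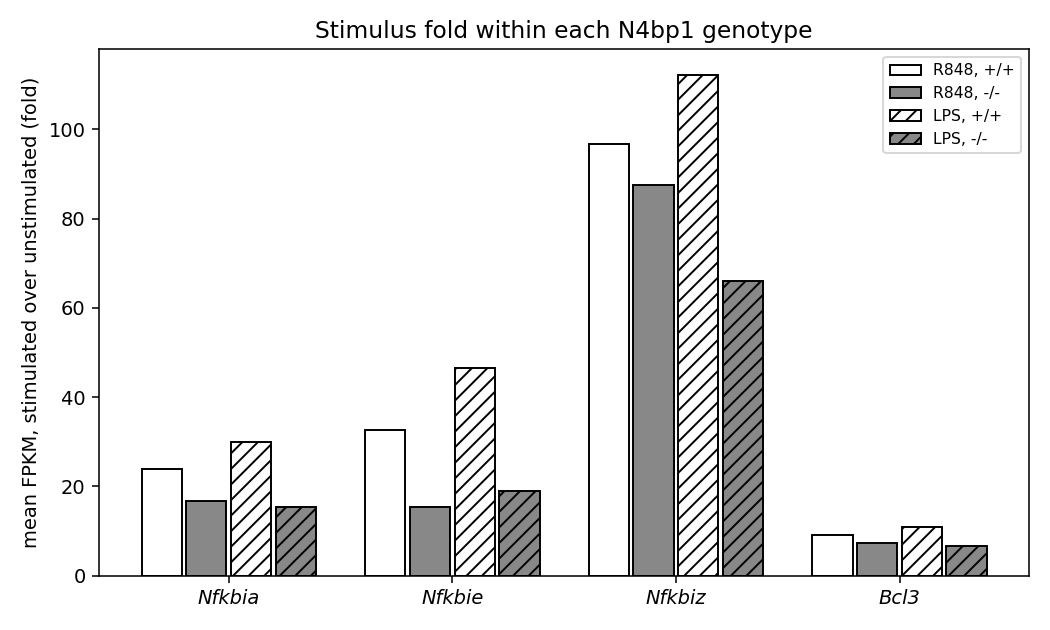
Stimulated over unstimulated mean FPKM (y axis, fold, from 0) for each gene (x axis), with white bars for N4bp1+/+ and grey bars for N4bp1-/- cells, plain for R848 and hatched for LPS; each bar is a ratio of 2 group means and has no error. For each gene and stimulus the grey bar is lower than the white one, by ratio most for *Nfkbie*, at 15.5 against 32.7 after R848. The fold was lower in the knockout for 80 of 123 listed genes with R848 and for 100 with LPS. After R848 this turns for *Nfkbiz* relative to the median listed gene or with 1 FPKM added to each mean. Relative to the 41 most abundant listed genes it turns for *Nfkbia*, *Nfkbiz* and *Bcl3* if the folds are scaled, but not if the genotype ratios are.

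Within a genotype none of the 4 genes differed by 1.5-fold between LPS and R848. In N4bp1+/+ cells the means after LPS were 1.26-fold (*Nfkbia*), 1.43-fold (*Nfkbie*), 1.16-fold (*Nfkbiz*) and 1.19-fold (*Bcl3*) those after R848. Relative to the median listed gene, however, the log2 ratio of *Nfkbiz* was −0.00260, and relative to the 41 most abundant those of *Bcl3* and *Nfkbiz* were −0.08 and −0.11. That of *Nfkbia* was 0 there by construction, since it was itself the median gene of the 41. In N4bp1-/- cells *Nfkbie* was still higher after LPS, at 1.23-fold, while *Nfkbiz* stood at 0.752-fold, *Nfkbia* at 0.921-fold and *Bcl3* at 0.915-fold its mean after R848. Of the 124 genes, 37.9% were that much higher after LPS and 12.1% lower in N4bp1+/+ cells, and 25.8% and 19.4% in N4bp1-/- cells. In N4bp1+/+ cells these are 47 and 15 genes, and 34 and 28 relative to the 41 most abundant.

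In a ratio between genes of the same group, a scaling factor shared by the group's 2 libraries cancels. The scaling of these 2 libraries against each other can still enter it. *Nfkbiz* had 0.0751 FPKM per FPKM of *Nfkbia* in unstimulated N4bp1+/+ cells and 0.0776 in N4bp1-/- cells. After R848 this ratio was 0.304 in N4bp1+/+ and 0.406 in N4bp1-/- cells, and after LPS 0.281 and 0.332. It was thus higher in the knockout after both stimuli. *Bcl3* went the other way with stimulation, from 0.286 per FPKM of *Nfkbia* in unstimulated N4bp1+/+ cells to 0.109 after R848 and 0.103 after LPS. The knockout values of this ratio were 0.238, 0.103 and 0.103.

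*Nfkbia* made up 66.9% of the summed FPKM of the 4 genes in unstimulated N4bp1+/+ cells and between 60.2% and 67.6% in the other groups. The share of *Nfkbiz* was 5.03% and 5.25% without stimulus in N4bp1+/+ and N4bp1-/- cells, 19.1% and 24.5% after R848, and 17.7% and 20.3% after LPS. The share of *Bcl3* was 19.1% and 16.1% without stimulus and between 6.22% and 6.84% after a stimulus. *Nfkbie* held between 8.94% and 13.0% throughout.

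**Figure D4:**
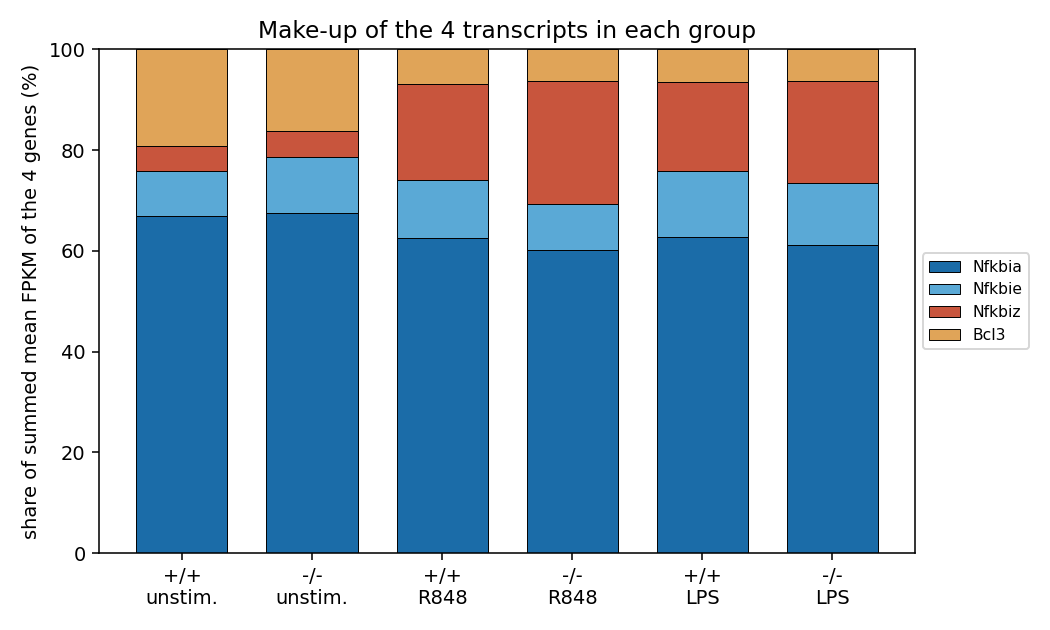
Share of each gene in the summed mean FPKM of the 4 genes (y axis, %) in each of the 6 groups (x axis). *Nfkbia* is the largest part in every bar, *Bcl3* the second without stimulus (19.1% and 16.1%) and *Nfkbiz* the second after R848 (19.1% and 24.5%) and LPS (17.7% and 20.3%).

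The proteins that IκBs bind are the NF-κB subunits, of which 4 of 5 are on the list (*Rela* is not). None of the 4 passed 1.5-fold between the genotypes in any treatment, and their median log2 ratios were 0.30 without stimulus, −0.03 after R848 and −0.14 after LPS. Over all listed genes these medians were 0.53, 0.28 and −0.09, and 47.2%, 33.9% and 21% of genes were higher by 1.5-fold. *Nfkb1*, which encodes p105 and p50, stood at 29.9 and 33.0 FPKM in unstimulated N4bp1+/+ and N4bp1-/- cells. Per FPKM of *Nfkb1*, *Nfkbia* stood at 0.915 in N4bp1+/+ and 1.36 in N4bp1-/- cells without stimulus, at 2.32 and 2.44 after R848, and at 2.47 and 2.00 after LPS. The RNA for the inhibitor was thus higher relative to that for this subunit in the unstimulated knockout and lower in the knockout after LPS. *Nfkbie* per FPKM of *Rel*, which encodes c-Rel, was 0.368 and 0.831 without stimulus, 2.27 and 2.34 after R848, and 2.86 and 2.50 after LPS. *Bcl3* per FPKM of *Nfkb2*, which encodes p100 and p52, was 0.555 and 0.524 without stimulus, 0.284 and 0.315 after R848, and 0.270 and 0.272 after LPS.

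Of 11 ubiquitin editors and adapters of the pathway, 5 are on the list. *Traf1*, an adapter of TNF receptors, was the 1 that passed 1.5-fold without stimulus, at 4.10 and 7.19 FPKM in N4bp1+/+ and N4bp1-/- cells, and *Tnip3*, a binding partner of A20, the 1 after R848, at 49.6 and 78.8 FPKM. After LPS 0 of the 5 passed. The shares of all listed genes higher by 1.5-fold were 47.2%, 33.9% and 21%. *Tnfaip3*, which encodes A20, another feedback inhibitor, stood at 16.5 and 17.7 FPKM without stimulus, 286 and 370 FPKM after R848, and 536 and 425 FPKM after LPS. The median log2 ratios of the 5 genes were 0.26, 0.37 and 0.11, beside 0.53, 0.28 and −0.09 for all listed genes. No member of the kinase complex, none of the IκB genes *Nfkbib*, *Nfkbid* and *Nfkbil1*, and none of *Socs3*, *Zc3h12a* and *Dusp1* is on the list.

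IκBζ is known in mice to be needed for a set of late genes. Of this set *Il6*, *Il12p40*, *Lcn2*, *Csf3*, *Edn1* and *Ccl17* were looked up, and all 6 are on the list. After R848, 5 of the 6 were at least 1.5-fold higher in N4bp1-/- cells, all but *Ccl17*, where 33.9% of all listed genes were, and the median log2 ratio was 1.19 for the 6 and 0.28 for all listed genes. *Nfkbiz* itself was 1.53-fold higher there, a call that ends under both scalings. Whether the level of *Nfkbiz* is linked to those of the 6 genes was not tested. *Il6*, for example, stood at 32.4 and 84.3 FPKM. After LPS, where *Nfkbiz* was at 230.9 and 229.3 FPKM, 2 were higher (*Lcn2* and *Csf3*) and 3 lower (*Edn1*, *Ccl17* and *Il12p40*), beside 21% and 16.1% of all listed genes. The median log2 ratio was −0.59, against −0.09 for all listed genes. *Edn1*, which encodes endothelin-1, stood at 110.5 FPKM (N4bp1+/+) and 51.2 FPKM (N4bp1-/-) after LPS. Without stimulus 4 of the 6 were higher by 1.5-fold, all 4 below 1 FPKM in both genotypes, beside 47.2% of all listed genes, and the median was 0.98 against 0.53. *Lcn2* is also among the neutrophil markers and *Ccl17* among those of dendritic cells.

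The listed genes most like each of the 4 over the 6 groups were sought by the root mean square difference of log2 FPKM after centring each gene on its own mean, over 123 genes above 0 in every group. The nearest to *Nfkbia* were *Bcl2a1d* (0.183), *Bcl2a1a* (0.198), both survival genes of 1 cluster of close copies whose reads may be shared, and *Nfkb2* (0.210). *Nfkbie* ranked 4th for *Nfkbia*, at 0.226, and *Nfkbia* was the nearest to *Nfkbie*, before *Nod2* (0.255), an intracellular sensor of bacterial cell walls, and *Tnfaip3* (0.307). *Bcl3* was nearest to *Tnip1* (0.169), which encodes another partner of A20, to *Nfkb1* (0.190) and to the row that joins *Bcl2a1b*, *Gm29094* and *Mthfs* (0.198). The nearest to *Nfkbiz* lay farther off and were the chemokine *Ccl3* (0.370), the co-stimulatory receptor *Cd40* (0.550) and the adhesion gene *Vcam1* (0.645). *Nfkbiz* and *Bcl3*, both atypical IκBs, were 1.62 apart, which made *Nfkbiz* 96th nearest to *Bcl3* but *Bcl3* 53rd nearest to *Nfkbiz*. The median distance of the listed genes was 0.971 from *Bcl3* and 1.83 from *Nfkbiz*.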

How the data were processed

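Per the labels and the methods, stranded mRNA libraries were aligned with TopHat2 2.0.10 to mm10 after CASAVA 1.8.2, and transcripts were assembled with Cufflinks (2.1.1 in the submitters' processing notes) and compared with cuffdiff. Annotation and read filters were not stated. For 124 genes, the authors deposited FPKM as group means, each over 2 mice. Columns with the authors' own comparison (fold change, test statistic, p and q) were not used. A joint table held identical means for all 124 genes.

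Log2 ratios of the deposited means were computed without pseudocount or filter, and a gene was counted as higher or lower at 1.5-fold or more. A gene with a mean of 0 has no ratio, which leaves 123 in comparisons with unstimulated N4bp1-/- cells. Depth is unknown. No p-value was computed, since no value per mouse was used. Groups came from genotype and treatment in the labels, and the 9 comparisons were those between genotypes within a treatment and between treatments within a genotype. The members and lists (NF-κB subunits, other IκBs, kinase complex, ubiquitin editors and adapters, genes that need IκBζ, other feedback genes, cell type markers) were chosen with earlier results of these data known. Named genes are the 4 members, the list genes and the 3 nearest in pattern to each member. Promoters came from RefSeq, matched by symbol for 3 of 4 members and 102 of 124 listed genes. Alternatives were pseudocounts of 0.1 and 1 FPKM, a 2-fold mark, a minimum of 1 FPKM, leaving out 4 rows that join genes, the joint table and 2 other scalings. Computations used Python 3.11.15, numpy 2.4.6, pandas 2.3.3 and matplotlib 3.10.9. The arithmetic of ratios and calls was checked on simulated group means with known changes, which tells nothing about replicate error.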

Additional observations from a re-analysis of the deposited data

How the results depend on the processing

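No replicate was left out, since only group means were used. No paired analysis was possible because the tables hold only group means. Both reference sets used for scaling are themselves inducible genes. The joint table gave the same values, and leaving out rows that join genes moved no count by over 1.5 times.

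At a 2-fold mark the log2 ratios of Nfkbie (1.00, just short), Nfkbiz (0.76) and Nfkbia (0.71) without stimulus and of Nfkbiz after R848 (0.62) are no longer called. Counts of genes lower in N4bp1-/- cells are then 0 without stimulus, 2 after R848 and 6 after LPS (4, 4 and 20 at 1.5-fold), and those for LPS against R848 in N4bp1-/- cells are 21 higher and 12 lower (32 and 24). A minimum of 1 FPKM leaves 37 genes higher and 1 lower without stimulus (58 and 4). A pseudocount of 0.1 FPKM leaves 1 lower there. A pseudocount of 1 FPKM leaves 35 higher and 1 lower there, and 9 lower after LPS than R848 in N4bp1+/+ cells (15). It puts Nfkbiz at 0.55 without stimulus, its R848 minus unstimulated difference at 0.0619 and its LPS minus unstimulated difference at −0.56.

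Relative to the median listed gene, the unstimulated genotype log2 ratios were 0.47 (Nfkbie), 0.23 (Nfkbiz), 0.19 (Nfkbia) and −0.0765 (Bcl3). Those after R848 were 0.34 (Nfkbiz), −0.0810 (Nfkbia) and −0.16 (Bcl3), and that of Nfkbiz after LPS was 0.0831. Nfkbiz for LPS against R848 in N4bp1+/+ cells was −0.00260. The LPS minus unstimulated differences were −0.34 (Nfkbia), −0.15 (Nfkbiz) and −0.0859 (Bcl3), the R848 minus LPS ones 0.25 (Nfkbiz) and −0.15 (Nfkbie), and the R848 minus unstimulated one 0.10 (Nfkbiz). Bcl3 against the unstimulated group was 0.0299 (R848) and −0.29 (LPS) in N4bp1+/+ and −0.00546 and −0.43 in N4bp1-/- cells, so that its induction was near or below that of the median gene. Genes lower between the genotypes numbered 27, 12 and 13 without stimulus, after R848 and after LPS. Genes higher and lower than unstimulated numbered 48 and 45 (R848) and 53 and 52 (LPS) in N4bp1+/+, and 42 and 44, and 48 and 47, in N4bp1-/- cells.

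Relative to the 41 listed genes with the highest FPKM, Nfkbiz was at 0.50 after R848 and 0.24 after LPS. Nfkbia was at 0 after LPS because it was itself the median gene of this set. For LPS against R848 in N4bp1+/+ cells the values were 0 (Nfkbia, again the median gene), −0.0840 (Bcl3) and −0.11 (Nfkbiz). The LPS minus unstimulated differences were −0.34 (Bcl3) and −0.41 (Nfkbiz), and the R848 minus LPS ones 0.26 (Nfkbiz) and −0.15 (Nfkbie). Bcl3 against unstimulated was −0.63 (R848) and −0.85 (LPS) in N4bp1+/+ and −0.41 and −0.89 in N4bp1-/- cells, and Nfkbia after LPS in N4bp1-/- cells 0.33. Genes lower between the genotypes numbered 7, 8 and 9, and those lower after LPS than R848 in N4bp1+/+ cells 28. Genes higher and lower than unstimulated numbered 37 and 65 (R848) and 44 and 62 (LPS) in N4bp1+/+, and 36 and 56, and 39 and 58, in N4bp1-/- cells.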
